A study of Arabidopsis thaliana with 6 samples.

Results

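The 34 probe sets described here measure transcripts of the mitochondrial genome of Arabidopsis thaliana and of the stretch of nuclear chromosome 2 that carries a copy of it. They were taken from the 17122 non-control probe sets of the deposited array table by gene name alone. A probe set annotated with 1 gene was a member if that gene had a mitochondrial symbol (nad, cox, cob, ccb, orf, atp or matR, leaving out the plastid genes atpA to atpI) or a locus from AT2G07660 to AT2G07790. By symbol 18 probe sets of 14 genes were found, and by locus 16 probe sets of 16 loci, which gave 30 genes in all. Of the symbols, only nad, cox, ccb and orf had single-gene probe sets. The genes cob, atp1, atp9 and cox3 lay on 4 of 10 further probe sets that are annotated with several genes, and these 10 are described separately.

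Mitochondria keep a small genome of their own, which in plants encodes part of the respiratory chain, a set of ribosomal proteins and proteins that attach haem to cytochrome c. Every respiratory complex that holds a mitochondrial subunit also holds nuclear subunits, and the transcription, splicing, editing and decay of mitochondrial transcripts depend on nuclear proteins, many of them pentatricopeptide repeat (PPR) proteins. In the Columbia strain of Arabidopsis a nearly complete copy of the mitochondrial genome lies near the centromere of chromosome 2. Its sequence is almost identical to the original, so a probe set for one can also bind transcripts of the other. Signals of the organelle genes and of their nuclear copies therefore could not be told apart, and the sources used here do not say whether the strains studied carry the insertion.

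DCL1 encodes the Dicer-like enzyme that releases most plant microRNAs from their precursors. Homozygous dcl1-15/dcl1-15 embryos (3 arrays) were compared with wild-type DCL1/DCL1 embryos (3 arrays), in a Ws background backcrossed to Landsberg erecta. Each array was made from a pool of 300 embryos dissected from the seed. The wild type was collected at the torpedo stage from DCL1/DCL1 plants that segregated from a heterozygous parent, whereas mutant embryos came from DCL1/dcl1-15 plants, out of siliques whose normal embryos had reached that stage, so the genotypes of embryo and mother plant differed together. The labels call the arrays of a genotype biological replicates 1 to 3. Values are the authors' normalized log2 values, differences are dcl1-15 minus wild type on that scale, and a probe set is said to have fallen or risen only at a limma adjusted p under 0.05 over all probe sets. In pooled embryos, fewer cells or mitochondria of a kind and less transcript in each cannot be told apart.

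Among the 34 probe sets, 7 fell in dcl1-15 embryos, 0 rose and 27 did not pass. The 7 were the cytochrome c maturation gene ccb206, 2 of the 5 probe sets of nad1, which encodes a subunit of respiratory complex I, and the chromosome 2 loci AT2G07708, AT2G07676, AT2G07773 and AT2G07705. Their falls ran from 0.37 to 1.60 on the log2 scale. Of all probe sets tested, 20.8% fell and 18.3% rose, together 39.1%, so the 20.6% of members that fell is close to the share in the whole table. Welch's test called 1 member lower, against 6.34% of all probe sets, and 0 higher, against 5.82%. An unadjusted limma p under 0.05 was found for 11 of the 34 members, all lower in dcl1-15. Over the whole table it was found for 8322 of 17122 probe sets, in either direction. With the replicate number as a block, 12 members fell and 0 rose, against 26.8% and 22.4% of all probe sets. A floor at log2 of 4 left 1 fall (13.3% of all probe sets). A filter at a mean of log2 of 4 left 4 falls among 13 members (22.8%), and a filter at the median brightness 0 among 5 (21.8%), none of them higher either. Single arrays also moved the count: 3 members fell without dcl1-15 replicate 2 (13.4% of all probe sets) and 9 without wild-type replicate 2 (15.6%).

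The differences of the members had a median of -0.37 and ran from -1.60 to 0.13, against a median of -0.07 over all probe sets tested. Below 0 lay 27 of the 34, or 79.4%, against 54.2% of all probe sets. The 3 arrays of dcl1-15 lay wholly below the 3 of wild type for 11 members and wholly above for none. Over the whole table these shares were 28.5% and 24.0%. Many members were dim: 16 had no value of log2 of 4 or more on any array and 8 reached that level on all 6. Among the 21 members with a mean under log2 of 4, 4 fell, against 15.9% of all probe sets that dim, and among the 13 brighter ones 3 fell, against 22.5%. No set test was run on the members, so nothing here is called particular to them.

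**Figure D1:**
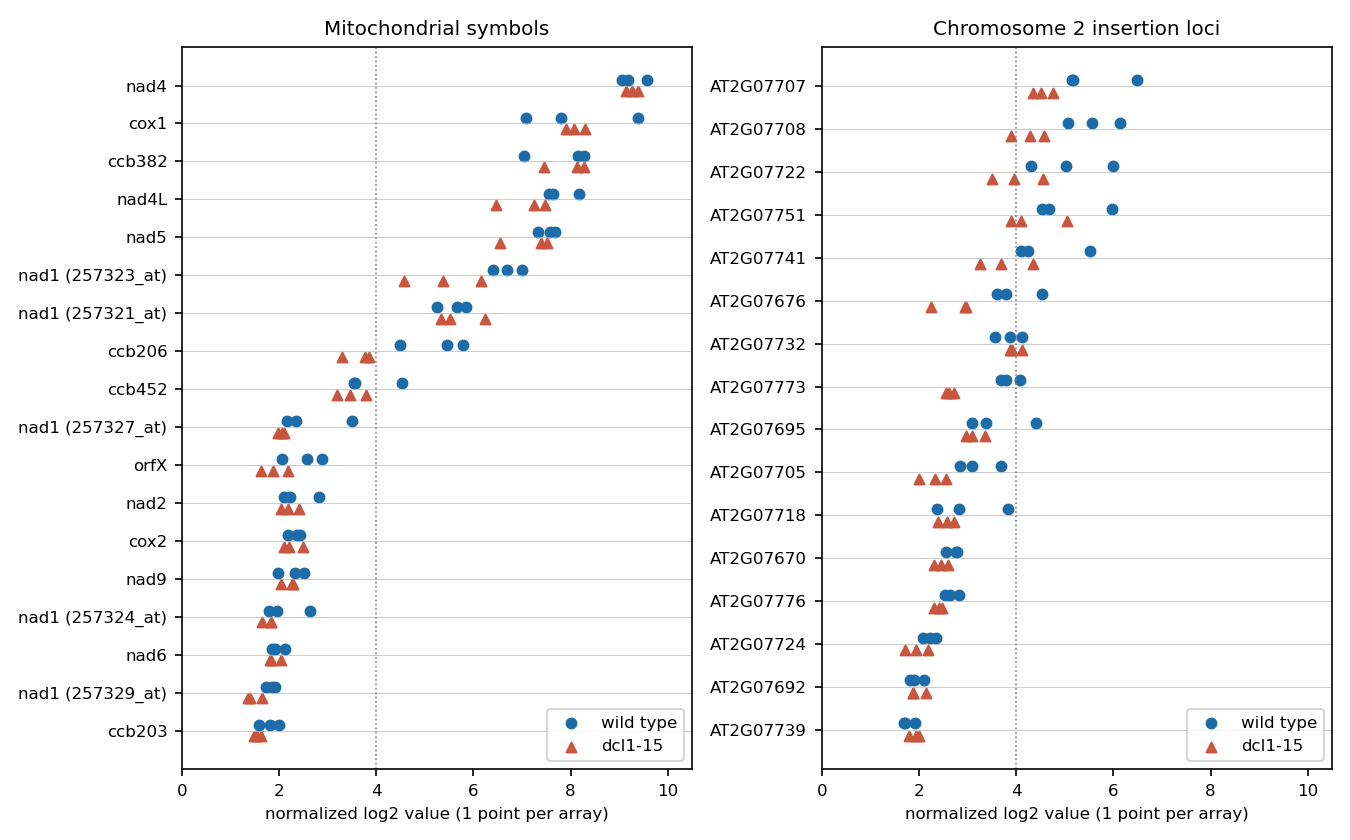
Normalized log2 values (horizontal axis) of the 34 probe sets, with mitochondrial symbols on the left and chromosome 2 loci on the right; each circle is a wild-type array and each triangle a dcl1-15 array, and the dotted line marks log2 of 4. The triangles lie wholly to the left of the circles for 11 probe sets, among them ccb206, AT2G07708 and AT2G07773, and 16 probe sets lie wholly to the left of the dotted line.

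Complex I, the NADH dehydrogenase that feeds electrons into the chain, was represented by 11 probe sets of 7 nad genes. Of the 11, 2 fell (18.2%, against 20.8% of all probe sets), both for nad1. In plants the nad1 messenger RNA is joined by trans-splicing from pieces that are transcribed separately, as are those of nad2 and nad5. The nad1 probe set 257323_at measured 7.01, 6.40 and 6.69 on wild-type arrays 1 to 3 and 4.58, 5.38 and 6.15 on dcl1-15 arrays 1 to 3. All 3 mutant arrays lay below all 3 wild-type ones, with number 1 far lower than number 3 among the mutants. The difference was -1.33 ± 0.39 (SE, limma adjusted p = 0.0270), which is 2.52-fold lower. Taken by replicate number the differences were -2.43, -1.02 and -0.54, so the size of the fall differed between the numbers. Without dcl1-15 replicate 1 the difference was -0.94 (adjusted p = 0.0700), and the call was also lost without wild-type replicate 3, without dcl1-15 replicate 2 and with a floor at log2 of 4. The floor changed none of the values of 257323_at, only its limma adjusted p, to 0.107.

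A second nad1 probe set, 257321_at, showed no such shift. It measured 5.67, 5.25 and 5.85 in wild type and 5.51, 5.34 and 6.25 in dcl1-15, and the genotypes overlapped. Its difference was 0.11, with a 95% interval from -0.60 to 0.82 (adjusted p = 0.806), and centring on the 2 reference genes turned it to -0.03. The interval does not reach the -1.33 of 257323_at, but it overlaps the 95% interval of 257323_at, from -2.23 to -0.43. The difference between the probe sets was not tested. The sources used here do not say which part of the gene each probe set covers.

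The other 3 nad1 probe sets had every value under log2 of 4. Probe set 257329_at measured 1.86, 1.73 and 1.92 in wild type and 1.39, 1.35 and 1.64 in dcl1-15, and fell by 0.37 (adjusted p = 0.0448). The mutant arrays lay just below the wild-type ones, and the call was lost when any 1 array other than dcl1-15 replicate 3 was left out. Probe set 257327_at measured 3.50, 2.17 and 2.34 in wild type and 2.09, 2.05 and 1.97 in dcl1-15 (difference -0.63, adjusted p = 0.140), without overlap. Probe set 257324_at differed by -0.36 (adjusted p = 0.205). In both, wild-type replicate 1 stood above the other 5 arrays.

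**Figure D2:**
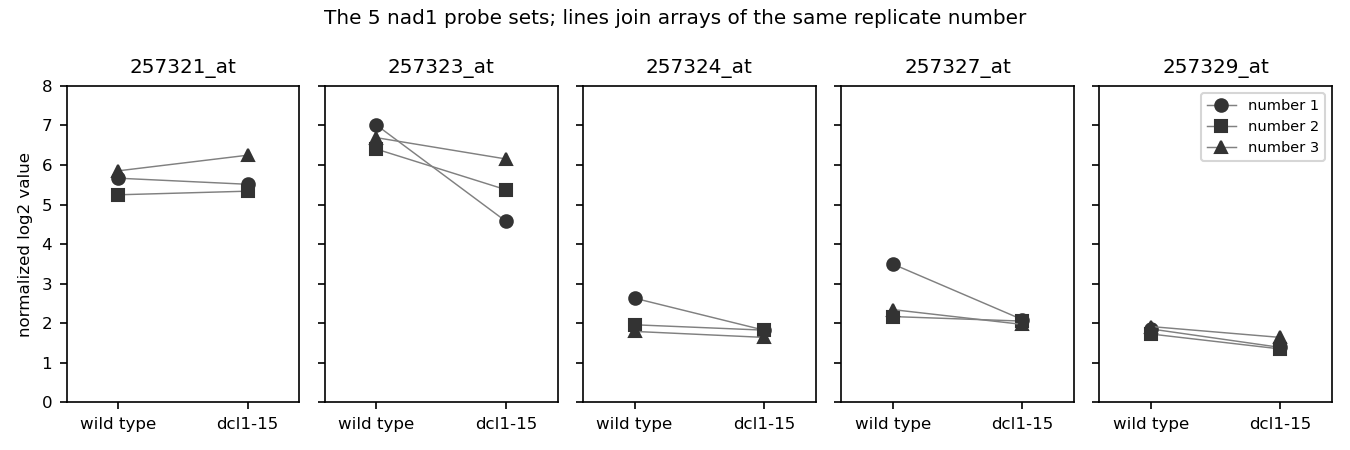
Normalized log2 values (vertical axis) of the 5 nad1 probe sets in wild type and dcl1-15; each symbol is an array, and lines join arrays of the same replicate number. Probe set 257323_at falls at all 3 numbers, by 0.54 to 2.43, 257321_at stays between 5.25 and 6.25, and the other 3 lie below log2 of 4.

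No other nad gene passed. The nearest was nad4L, a small membrane subunit of complex I, at 8.18, 7.56 and 7.63 in wild type and 7.24, 6.46 and 7.47 in dcl1-15. The groups did not overlap, and the difference was -0.73 ± 0.31 (SE, adjusted p = 0.0912). With the replicate number as a block nad4L fell (adjusted p = 0.0291). The gene nad5 measured 7.59, 7.32 and 7.67 in wild type and 7.39, 6.55 and 7.51 in dcl1-15 (difference -0.37, adjusted p = 0.337), and dcl1-15 replicate 2 was the 1 array that stood apart. The gene nad4, also a membrane subunit, measured 9.58, 9.05 and 9.18 in wild type and 9.40, 9.15 and 9.27 in dcl1-15. Its groups overlapped throughout, and its difference was 0.00, with a 95% interval from -0.41 to 0.42. That of nad1 257323_at ran from -2.23 to -0.43, and the difference between nad4 and nad1 was not tested. The probe sets of nad2, nad6 and nad9 stayed under log2 of 4 on every array and differed by -0.18, -0.06 and -0.08.

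Complex IV, cytochrome c oxidase, was represented by its subunit genes cox1 and cox2, and neither passed. The cox1 probe set measured 9.39, 7.80 and 7.08 in wild type and 8.30, 8.08 and 7.90 in dcl1-15. Wild type spread over more than the whole range of the mutant, so the difference of 0.00 had a wide 95% interval, from -1.13 to 1.14 (adjusted p = 0.999). By replicate number it was -1.09, 0.27 and 0.82, in both directions, and with 1 array left out it ran from -0.50 without wild-type replicate 3 to 0.65 without wild-type replicate 1 (adjusted p = 0.0547 for the latter). The cox2 probe set lay between 2.09 and 2.49 on all arrays, with a difference of -0.06 (adjusted p = 0.777).

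The ccb genes encode parts of the machinery that moves haem across the inner membrane and joins it to cytochrome c. Of the 4 measured, 1 fell (25.0%, against 20.8% of all probe sets). The gene ccb206, the CcmB transporter subunit, measured 4.48, 5.45 and 5.78 in wild type and 3.29, 3.84 and 3.77 in dcl1-15. Every mutant array lay below every wild-type array, and number 1 was the lowest of its group in both genotypes. The difference was -1.60 ± 0.35 (SE, adjusted p = 0.00760), or 3.04-fold lower, the largest among the 34. It remained called with any 1 array left out and with the block (adjusted p = 8.53e-04), but not without both arrays numbered 2 (adjusted p = 0.0819), without both numbered 3 (adjusted p = 0.0656) or by Welch's test (adjusted p = 0.117). Raising values under log2 of 4 to that level gave a difference of -1.24 and ended the call (adjusted p = 0.0666), and all 3 mutant arrays lie under it.

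The other ccb genes encode the haem lyase subunits of the CcmF type. The ccb382 probe set measured 7.04, 8.15 and 8.28 in wild type and 7.45, 8.28 and 8.12 in dcl1-15, with overlap and a difference of 0.13 (adjusted p = 0.807), of -0.26 without wild-type replicate 1 and of -0.0084 when centred on the reference genes. The ccb452 and ccb203 probe sets differed by -0.40 and -0.24 (adjusted p = 0.333 and 0.186). The 1 member of the orf kind, orfX, a reading frame for a membrane protein related to TatC transporters, measured 2.89, 2.07 and 2.57 in wild type and 2.18, 1.63 and 1.87 in dcl1-15. It lay under log2 of 4 throughout, at a difference of -0.61 (adjusted p = 0.0625), and fell with the block (adjusted p = 0.00782).

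Of the 16 loci in the chromosome 2 insertion 4 fell (25.0%, against 20.8% of all probe sets) and 12 did not pass. The median difference of the 16 was -0.60, against -0.30 for the 18 probe sets with mitochondrial symbols. The difference between these 2 kinds of member was not tested. The sources used here give these loci no product, so they are described by locus only. AT2G07708 measured 6.13, 5.06 and 5.57 in wild type and 4.58, 3.89 and 4.29 in dcl1-15, and fell by 1.33 (adjusted p = 0.0125). The groups did not overlap, and within each genotype number 1 was highest and number 2 lowest. It is the only 1 of the 34 that fell once values were floored (difference -1.30, limma adjusted p = 0.0460). Its call was lost without dcl1-15 replicate 2, without both arrays numbered 2 (adjusted p = 0.0612) and without both numbered 3 (adjusted p = 0.0945).

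AT2G07773 was the member with the smallest spread among those that fell by more than 1. It measured 4.07, 3.68 and 3.79 in wild type and 2.72, 2.55 and 2.61 in dcl1-15, a difference of -1.22 ± 0.18 (SE, adjusted p = 0.00121). The mutant arrays were all lower by a similar amount, -1.35, -1.13 and -1.17 by replicate number. It alone among the members was also called by Welch's test (adjusted p = 0.0404), and it remained called with any 1 array left out. With the floor its difference was -0.02, because 5 of its 6 values lie below log2 of 4.

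AT2G07676 measured 4.53, 3.79 and 3.60 in wild type and 2.94, 2.25 and 2.97 in dcl1-15, and fell by 1.25 (adjusted p = 0.0111). AT2G07705 measured 3.68, 2.84 and 3.09 in wild type and 2.32, 2.56 and 2.01 in dcl1-15, and fell by 0.91 (adjusted p = 0.0185). Neither overlapped between genotypes, and neither remained with the floor. The first call was lost without dcl1-15 replicate 2 and without both arrays numbered 2 (limma adjusted p = 0.0990). The second was lost without dcl1-15 replicate 3 and without both arrays numbered 3 (limma adjusted p = 0.124).

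AT2G07722, AT2G07707 and AT2G07741 had differences of similar size without passing. AT2G07722 measured 5.98, 4.29 and 5.02 in wild type and 4.55, 3.50 and 3.95 in dcl1-15 (difference -1.10, adjusted p = 0.0782), with overlap only between the highest mutant and the lowest wild-type array. AT2G07707 measured 6.48, 5.14 and 5.17 in wild type and 4.50, 4.34 and 4.77 in dcl1-15 (difference -1.06, adjusted p = 0.0527), without overlap. AT2G07741 differed by -0.86 (adjusted p = 0.140). In all of them wild-type replicate 1 was the highest array. With the block AT2G07722 and AT2G07707 fell (adjusted p = 0.00417 and 0.0230), as did AT2G07751, whose difference was -0.72 (adjusted p = 0.0221 with the block, 0.232 without).

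The other 8 loci, among them AT2G07670, AT2G07695, AT2G07718 and AT2G07724, differed by -0.49 to 0.13. They include the 3 loci above 0, AT2G07692, AT2G07732 and AT2G07739, at 0.03, 0.12 and 0.13 and all below 0 after centring on the 2 reference genes. The RefSeq table (assembly TAIR10.1, Columbia) holds 15 of the 16 loci. Ranked by start among these 15 alone, the 4 that fell were 1, 4, 7 and 9, as AT2G07773, AT2G07676, AT2G07705 and AT2G07708. Genes without a member probe set are not in this ranking. AT2G07707 ranked between the last pair. AT2G07776, next after AT2G07773 in the ranking, measured 2.82, 2.53 and 2.64 in wild type and 2.42, 2.32 and 2.48 in dcl1-15 (difference -0.26, adjusted p = 0.206).

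**Figure D3:**
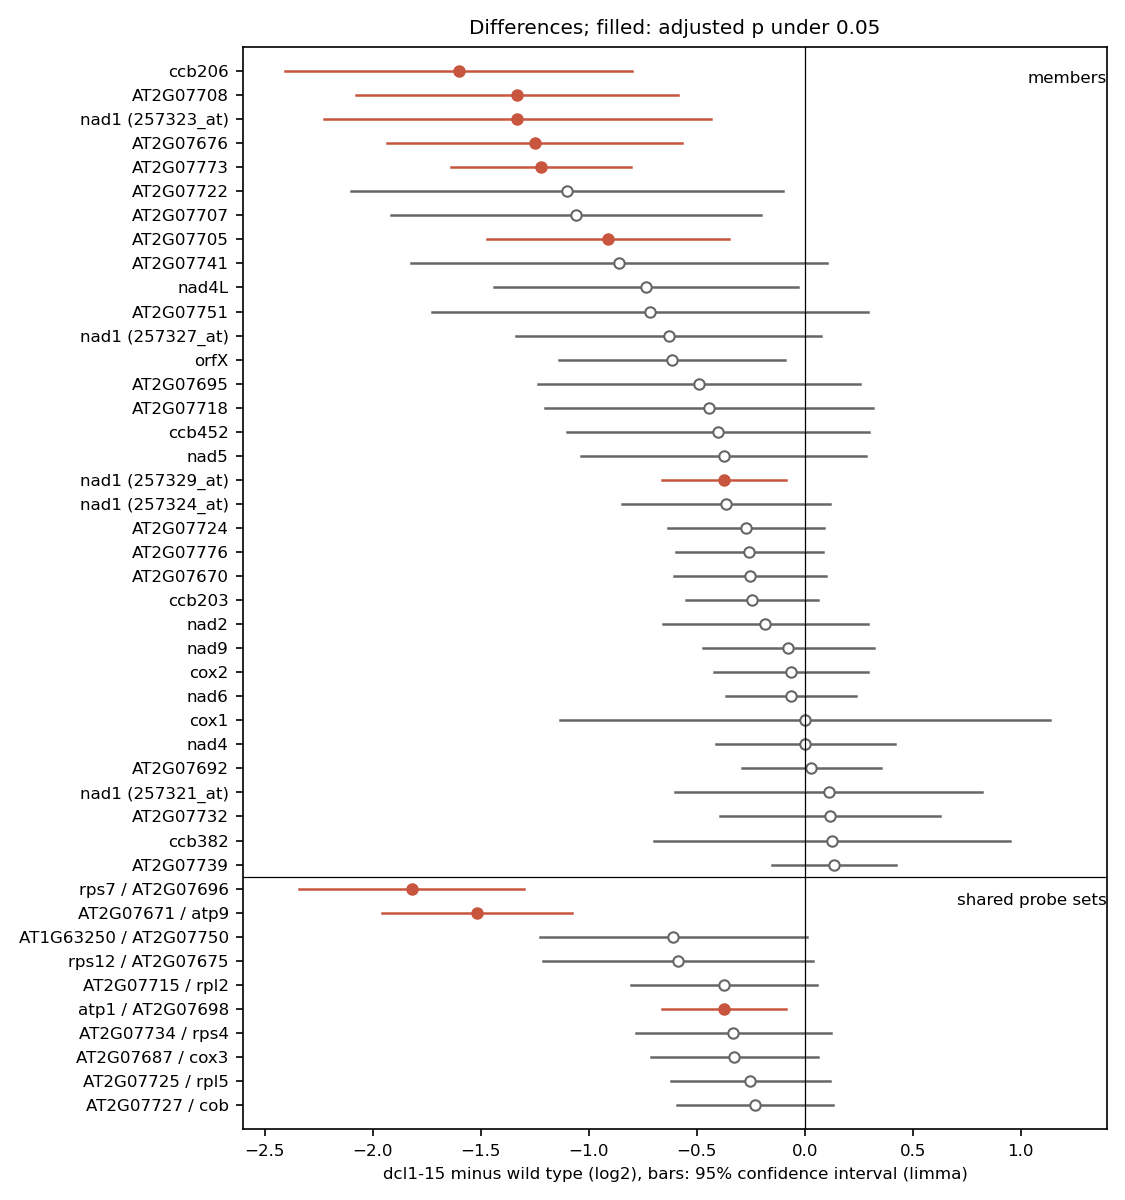
Differences of dcl1-15 minus wild type (log2, horizontal axis) with 95% confidence intervals from limma for the 34 members (above the line) and the 10 probe sets annotated with several genes (below it). Filled red points have an adjusted p under 0.05: 7 of the 34 and 3 of the 10, all to the left of 0.

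Probe sets annotated with several genes gave values for cob, atp1, atp9 and cox3, which had no single-gene probe set. Of the 10, 9 pair a mitochondrial gene with a chromosome 2 locus, and 1 pairs AT2G07750 with AT1G63250, a nuclear locus on chromosome 1. All 10 had differences below 0, against 54.2% of all probe sets, and their median difference was -0.37. Falls numbered 3 and rises 0, against 20.8% and 18.3% of all probe sets. Welch's test called 1 lower and 0 higher, against 6.34% and 5.82% of all probe sets. An unadjusted limma p under 0.05 was found for 3 of the 10, against 8322 of all 17122 probe sets. The probe set of atp9, the ring subunit of the ATP synthase, annotated together with AT2G07671, measured 9.91, 9.69 and 9.72 in wild type and 8.28, 8.55 and 7.94 in dcl1-15. The genotypes were separated by more than 1 log2 unit, with a difference of -1.52 ± 0.19 (SE, limma adjusted p = 5.28e-04). The call remained with any 1 array left out and with the floor, but not by Welch's test (adjusted p = 0.0522). The probe set of atp1, the alpha subunit of the same enzyme, annotated together with AT2G07698, measured 11.22, 11.15 and 11.15 in wild type and 10.85, 10.57 and 10.98 in dcl1-15. It fell by 0.37 (adjusted p = 0.0450), without overlap, and kept the call in 1 of the 6 single omissions, that of dcl1-15 replicate 3.

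Outside the ATP synthase, cob, the cytochrome b of complex III, and cox3 differed by -0.23 and -0.33 (adjusted p = 0.280 and 0.162), with every value under log2 of 4. The largest fall of the shared probe sets was that of rps7, a mitochondrial ribosomal protein gene, annotated together with AT2G07696. It measured 5.07, 5.27 and 5.55 in wild type and 3.36, 3.44 and 3.64 in dcl1-15, a difference of -1.82 ± 0.23 (SE, limma adjusted p = 5.02e-04). It alone of the shared probe sets was called by Welch's test (adjusted p = 0.0265). The other 5 shared probe sets, 4 of them for ribosomal protein genes, differed by -0.25 to -0.61 and did not pass. Counted with the 34 members, 10 of 44 probe sets fell.

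The arrays of 1 genotype differed from each other in these probe sets. In 24 of the 34 members (70.6%) wild-type replicate 1 was the brightest array of its genotype, against 41.5% of all probe sets, and the median deviation of the members from their wild-type mean was 0.31 there, -0.21 on replicate 2 and -0.08 on replicate 3. Over all probe sets those medians were -0.001, 0.005 and 0.008. In dcl1-15 the medians of the members were 0.09, -0.12 and 0.004 for replicates 1 to 3. By replicate number, dcl1-15 lay below wild type in 30, 25 and 25 of the 34 members, at median differences of -0.73, -0.32 and -0.16, and in 21 of them at all 3 numbers, against 38.8% of all probe sets. Without both arrays numbered 1, 10 members fell (28.7% of all probe sets) at a median of -0.22, without those numbered 2, 2 fell (6.81%), and without those numbered 3, 3 fell (8.46%). What a shared replicate number marks is not given in the labels, and its part in the spread was not tested.

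**Figure D4:**
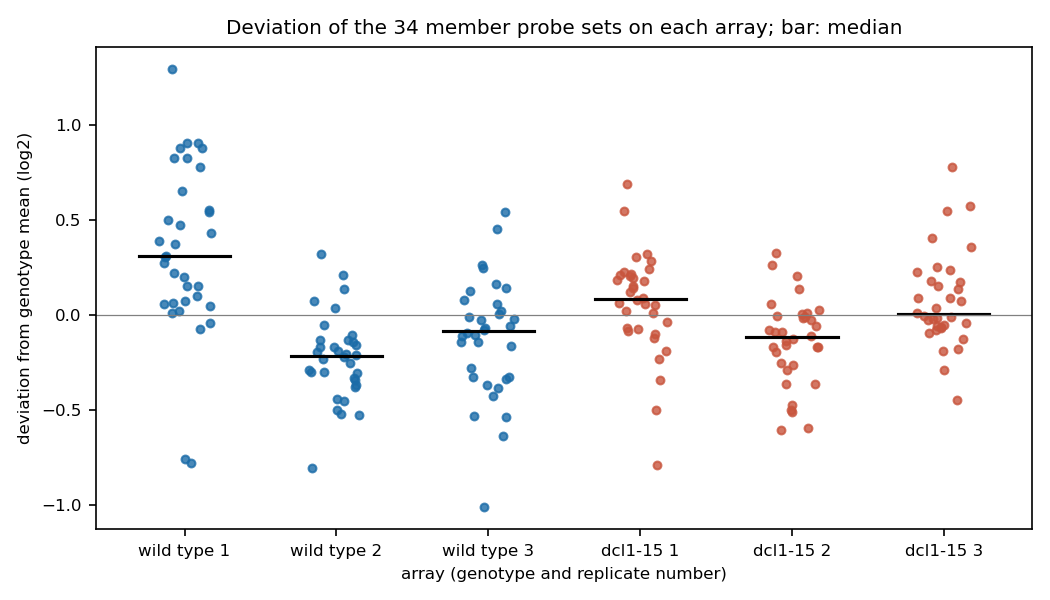
Deviation of each of the 34 probe sets from the mean of its genotype (log2, vertical axis) on each of the 6 arrays (horizontal axis); points are probe sets and bars are medians. Most points of wild-type replicate 1 lie above 0, with a median of 0.31, and those of wild-type replicate 2 below it, with a median of -0.21.

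Nuclear genes that act in mitochondria were listed by role. Of 94 genes listed for the expression and upkeep of the mitochondrial genome, 5 were measured, 4 fell and OTP43 did not pass. Of all probe sets tested, 20.8% fell and 18.3% rose. The PPR protein gene OTP87, which acts in editing of nad7 and atp1 transcripts, measured 4.99, 5.09 and 5.42 in wild type and 3.75, 4.06 and 3.93 in dcl1-15, and fell by 1.25 (adjusted p = 0.00340). The gene OSB1, whose single-stranded DNA-binding protein limits recombination of mitochondrial DNA, measured 6.42, 6.33 and 5.81 in wild type and 4.58, 5.44 and 5.33 in dcl1-15, and fell by 1.07 (adjusted p = 0.0253). In both the genotypes were separate.

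The other falls in that list were smaller and depended on single arrays. PPR596, which acts in editing of rps3 transcripts, fell by 0.88 with overlapping groups (adjusted p = 0.0430), and PPR336, a protein found with mitochondrial ribosomes, fell by 0.57 (adjusted p = 0.0280). OSB1, PPR596 and PPR336 lost the call without wild-type replicate 2 and under several other single omissions, with adjusted p up to 0.154. OSB1 and PPR596 also lost it with the floor, which changed none of their values, only their adjusted p. By Welch's test OTP87 alone of the 4 was called (adjusted p = 0.0342). OTP43, needed for trans-splicing of nad1, measured 3.32, 4.08 and 3.87 in wild type and 3.69, 3.80 and 3.46 in dcl1-15. Its groups overlapped, with a difference of -0.11 and a 95% interval from -0.67 to 0.45 (adjusted p = 0.758). AOX1A, RPOTm, RPOTmp and MSH1 were not analysed here, since no single-gene probe set carried those names.

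Of 58 nuclear genes listed for the respiratory chain and cytochrome c, 10 were measured, with a median difference of -0.02. Of these 10, 1 rose, 2 fell and 7 did not pass, while 18.3% of all probe sets rose and 20.8% fell. The gene CYTC-2, 1 of the pair of genes for cytochrome c, measured 8.55, 7.87 and 8.30 in wild type and 9.95, 9.89 and 9.71 in dcl1-15, and rose by 1.61 (adjusted p = 5.19e-04). Its partner CYTC-1 measured 12.22, 11.98 and 11.70 in wild type and 11.92, 11.79 and 11.66 in dcl1-15 and did not pass (difference -0.18, adjusted p = 0.342). CCMH, a nuclear gene of the cytochrome c maturation pathway to which ccb206 belongs, measured 7.14, 6.12 and 6.33 in wild type and 4.70, 5.30 and 4.70 in dcl1-15, and fell by 1.63 (adjusted p = 0.00544). CYTC-2 and CCMH were separate between genotypes and kept their calls with any 1 array left out, while Welch's test called neither (adjusted p = 0.0566 and 0.0780) and 0 of the 10 genes.

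SDH2-2, an iron-sulfur subunit of succinate dehydrogenase (complex II), fell by 0.56 (adjusted p = 0.0428), and kept the call in 1 of the 6 single omissions, that of wild-type replicate 1. The nuclear complex I genes FRO1 and GLDH, the second an enzyme of ascorbate synthesis that also assists complex I assembly, differed by 0.11 and -0.04 (adjusted p = 0.568 and 0.910). With the block the respiratory list had 2 rises, the further 1 being SDH1-1 (difference 0.52, adjusted p = 0.00827 with the block and 0.0900 without). Of 37 genes listed for alternative respiration and mitochondrial stress, 3 were measured and 0 passed in limma or Welch's test. In limma 39.1% of all probe sets passed. NDB1, an external NAD(P)H dehydrogenase, had an unadjusted limma p under 0.05. NDB1 differed by -1.01 (adjusted p = 0.0900) and fell with the block (adjusted p = 0.00448).

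**Figure D5:**
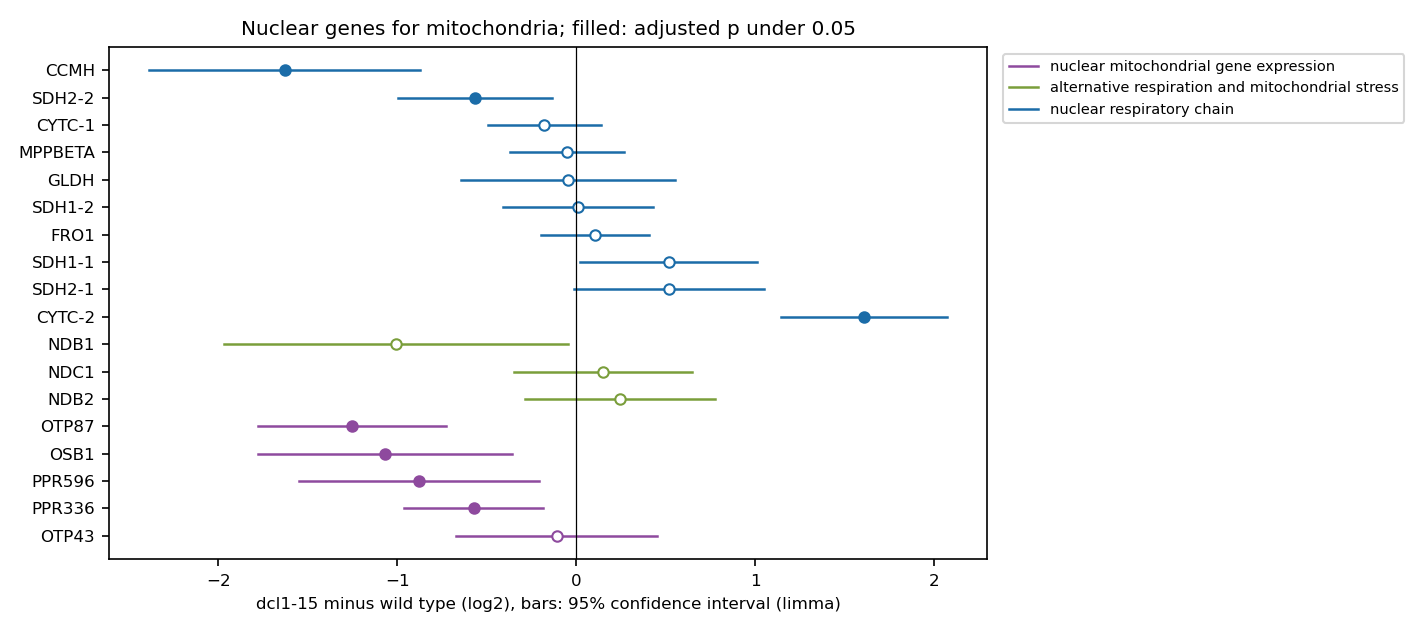
Differences of dcl1-15 minus wild type (log2, horizontal axis) with 95% confidence intervals from limma for the 18 measured nuclear genes that act in mitochondria, coloured by list; filled points have an adjusted p under 0.05. CYTC-2, at 1.61, is the filled point to the right of 0, and 4 of the 5 genes for mitochondrial gene expression are filled and to the left.

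The plastid genome, the other organelle genome on the array, gave similar counts. Of its 68 single-gene probe sets 13 fell (19.1%) and 0 rose, with a median difference of -0.26, against 7 of 34 (20.6%) and -0.37 for the mitochondrial members. With the replicate block 23 plastid probe sets fell (33.8%) and 2 rose, and Welch's test called 3 lower and 0 higher. The difference between the organelles was not tested.

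Markers of other seed tissues moved with genotype in the same arrays. Of 28 listed seed coat and endosperm markers 7 were measured and 6 rose, while 18.3% of all probe sets rose. The sum of the 7 unlogged values ran from 2365 to 2703 in wild type and from 6483 to 7586 in dcl1-15. The dimmest of them, BAN and AT5G26630, stayed under log2 of 5 and of 3. The floor ended the calls of BAN, DFR and DELTA-VPE (limma adjusted p = 0.251, 0.130 and 0.0872). It changed no value of DFR or DELTA-VPE, whose differences stayed the same. Welch's test called 1 of the 7, SAG29. Of 9 embryo markers 3 were measured and all fell, while 20.8% of all probe sets fell. YAB3 fell from 10.82 ± 0.30 to 6.91 ± 0.44 (mean ± SD over the arrays of a genotype, limma adjusted p = 1.71e-05). Of those 3, CLV3 lay under log2 of 4 on every array, so the floor left it no difference, and Welch's test called YAB3 alone. The part of these tissues in the differences of the mitochondrial probe sets was not tested. Of the 2 reference genes, AT4G34270 differed by -0.12 (adjusted p = 0.590) and AT2G28390 by 0.39 (adjusted p = 0.0729), the latter without overlap and called higher with the floor and by Welch's test (adjusted p = 0.0108 and 0.0343). The floor changed no value of these 2 genes. Centring the arrays on them moved the median of all probe sets from -0.07 to -0.20 and that of the members from -0.37 to -0.51.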

How the data were processed

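Each of the 6 arrays was hybridized with biotin-labelled cDNA amplified from 50 ng of RNA, which had been treated with DNase on the column, per the labels' protocols. The authors deposited normalized log2 values. GCRMA and MAS5 are listed, without roles or versions, per the submitters' processing notes, so which of them made these values is open. With normalized values alone, a low value has no stated distance from background, and precision is limited by the number of arrays.

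Of 17159 probe sets, 37 controls were left out. Gene names came from the platform annotation, which gives 1 gene for 9631 probe sets, several for 365 and none for 7126. RefSeq's gene table (assembly TAIR10.1) held 15 of the 34 members by gene identifier. Mitochondrial symbols are those of the platform annotation. limma 3.58.1 in R 4.3.3 (lmFit, eBayes with an intensity trend) was run on all 17122 probe sets with Benjamini-Hochberg adjustment, a threshold of 0.05 and no covariate, and was tested on simulated arrays. The floor raised values below log2 of 4 to 4, and limma was run again over all probe sets. Adjusted p can therefore move for probe sets without such values.

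Every member was to be accounted for, and those past the threshold, those without overlap between genotypes and those of a gene with several probe sets were to be named. From each list of nuclear genes up to 3 past the threshold in each direction were to be named, and AOX1A, RPOTm, RPOTmp, MSH1 and the reference genes whatever their value; other genes were named after their values were seen. Members and lists were chosen with earlier results of these data known. Deviations from the genotype means correlated at 0.48, 0.21 and 0.36 for arrays that share a number. A pairing by number thus rests on the data and not on the labels. The main calls came from the unpaired fit, and the replicate block is the paired alternative. Unmatched wild-type 2 and dcl1-15 3, and wild-type 3 and dcl1-15 2, also correlated, at 0.31 and 0.15. The labels call the pools biological replicates without naming separate plants, so p-values measure the spread between these arrays. Alternatives were the floor, quantile normalization, centring on the reference genes, filters on dim probe sets, no trend, Welch's test, the replicate block and omission of arrays. Counting the shared probe sets with the members (10 of 44 fell) and keeping 1 probe set per gene (6 of 30 fell) were added after the data were seen.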

Additional observations from a re-analysis of the deposited data

How the results depend on the processing

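The count of 0 members higher was the same in every alternative run. The count of members lower, 7, was 1 with the floor at log2 of 4, 1 with Welch's test, 4 of the 13 left by the filter at log2 of 4, 0 of the 5 left by the filter at the median brightness, 12 with the replicate block, 2 without the arrays numbered 2 and 3 without those numbered 3. With 1 array left out it ran from 3 (without dcl1-15 replicate 2) to 9 (without wild-type replicate 2). The median difference of the members, -0.37, was 0.0 with the floor, -0.73 over the 13 left by the filter at log2 of 4, 0.00096 over the 5 left by the stricter filter, and ran from -0.52 to -0.22 with 1 array left out. The replicate block moved 5 of the 34 members from not passing to lower and ended none of the 7 calls. It changed 2 calls among the nuclear genes acting in mitochondria, those of SDH1-1 and NDB1.

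Signs turned in members that passed in neither fit. Centring on the reference genes gave cox1 -0.14, nad4 -0.13, AT2G07692 -0.11, nad1 probe set 257321_at -0.026, AT2G07732 -0.018, ccb382 -0.0084 and AT2G07739 -0.0013. Without the arrays numbered 1, nad6 was 0.052, AT2G07692 -0.079 and ccb382 -0.012. Without those numbered 2, cox2 was 0.040, cox1 -0.13, nad4 -0.046 and AT2G07732 -0.0035, and without those numbered 3, nad9 was 0.0044, cox1 -0.41, nad4 -0.042 and nad1 probe set 257321_at -0.031. Quantile normalization gave AT2G07692 -0.020 and the floor AT2G07732 -0.00086. With 1 array left out, nad2 ran from -0.32 to 0.035, nad9 from -0.23 to 0.049, cox2 from -0.18 to 0.020, nad6 from -0.13 to 0.012, cox1 from -0.50 to 0.65, nad4 from -0.11 to 0.16, AT2G07692 from -0.060 to 0.11, nad1 probe set 257321_at from -0.16 to 0.29, AT2G07732 from -0.031 to 0.26 and ccb382 from -0.26 to 0.38. The cause of these changes was not tested. The floor and the filters act on dim values, and the filters leave fewer members to test.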
